A study of Mus musculus with 18 samples.

Results

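RNA of 10 markers of cell identity was followed in ED1SQ4 cells, a mouse lung cancer line established from a tumor of a transgenic mouse that overexpresses cyclin E. The 10 genes are the lung lineage factor *Nkx2-1*, the epithelial adhesion genes *Epcam* and *Cdh1*, the mesenchymal adhesion, filament and matrix genes *Cdh2*, *Vim* and *Fn1*, and the transcriptional repressors *Zeb1*, *Zeb2*, *Snai1* and *Snai2*. They were chosen by gene symbol from the 55450 genes of the count table, and each symbol matched 1 gene. ED1SQ4 cells received vehicle or CYC065 (fadraciclib, an inhibitor of CDK2 and CDK9) at 0.5 µM for 72 hours. RNA came from unsorted cells or from cells stained live with a DNA dye and sorted by DNA content. The sort gave 2N and 4N populations, which the study calls diploid and polyploid, so there are 6 conditions. All 6 share the cyclin E transgene of the line, which is a single line with no second line or donor beside it.

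The table holds 3 columns per condition, and the labels describe them in 2 ways: the titles call the 3 columns replicates, while the library names give them as parts of 1 numbered library. Over genes with whole counts, the 3 columns of a condition differed by no more than sampling noise (chi-square per degree of freedom 0.991 to 1.02), while columns of different conditions differed far more (14.5 to 374). Over genes with fractional counts, where reads shared between genes had been split by estimation, the columns of a condition differed more, at 4.35 to 7.595. The 10 markers had whole counts. The 3 columns were summed and counted as 1 sample. On this reading n = 1 library per condition, there is no replicate check, and no p-value between conditions is given. The summed libraries held 54750168 to 62795451 counts. Levels are CPM, the count scaled to a library of 1000000 counts after TMM normalization. A bracketed range is a 95% interval of counting error alone, which says nothing of the spread between cultures. "Higher" and "lower" describe these libraries.

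An epithelial cell holds to its neighbours through E-cadherin (*Cdh1*) and EpCAM (*Epcam*), and lung epithelium and many lung adenocarcinomas carry NKX2-1, the transcription factor that specifies lung endoderm. In the epithelial to mesenchymal transition, repressors of the ZEB and Snail families bind E-box sequences in epithelial genes, E-cadherin gives way to N-cadherin (*Cdh2*), the filament protein vimentin (*Vim*) is made in quantity, and fibronectin (*Fn1*) is laid down as matrix.

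The libraries of this lung cancer line held next to no RNA for the lung and epithelial markers and large amounts for the mesenchymal ones. *Nkx2-1* (ENSMUSG00000001496.15, chr12:56531958-56536908, minus strand, mm10) had 0 counts in each of the 6 libraries. The counting interval of a count of 0 reaches up to 0.0545 to 0.0670 CPM (3.69 counts), depending on the library. *Epcam* (ENSMUSG00000045394.9, chr17:87635979-87651129, plus strand) had 1 count in the CYC065 unsorted library, 1 in the CYC065 4N library and 0 in the other 4. *Cdh1* (ENSMUSG00000000303.12, chr8:106603351-106670246, plus strand) had 12, 9 and 9 counts in unsorted, 2N and 4N cells with vehicle, and 9, 15 and 15 counts in the same populations with CYC065. These 3 genes stayed under 30 counts in all 6 libraries, the minimum set for a ratio, so no fold change is given for them. The lowest and highest *Cdh1* counts have overlapping counting intervals, 4.12 to 17.1 for 9 and 8.40 to 24.7 for 15, and a difference among the libraries was not detectable at this depth.

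Because ZEB and Snail repressors recognize the E-box letters CACCTG, searched here on both strands, the 250 bases upstream of the annotated start are shown for *Epcam*, the near-silent epithelial marker, and for *Snai1*, the repressor that was past 2-fold between treatments. Both are from RefSeq on GRCm38.p6 (mm10), read 5′ to 3′ on the strand of the gene, with the E-box letters in capitals.
Epcam upstream, chr17:87635729-87635978, plus strand: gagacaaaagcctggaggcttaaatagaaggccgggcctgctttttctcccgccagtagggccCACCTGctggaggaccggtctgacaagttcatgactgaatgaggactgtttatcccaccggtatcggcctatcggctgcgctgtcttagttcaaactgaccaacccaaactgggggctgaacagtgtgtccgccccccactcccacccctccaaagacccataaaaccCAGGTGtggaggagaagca
Snai1 upstream, chr2:167537945-167538194, plus strand: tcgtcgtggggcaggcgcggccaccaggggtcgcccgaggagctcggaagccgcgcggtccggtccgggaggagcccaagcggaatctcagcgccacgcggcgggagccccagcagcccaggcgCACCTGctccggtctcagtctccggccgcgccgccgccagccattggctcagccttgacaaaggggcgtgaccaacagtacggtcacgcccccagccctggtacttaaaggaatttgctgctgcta
The *Epcam* window held 2 such E-boxes, starting 187 and 19 bases before the start, and the *Snai1* window held 1, starting 126 bases before it. The *Nkx2-1* window also held 1, at 205 bases, while the window of *Vim* and the 4 windows of *Zeb2* held none. No window of *Cdh1*, *Cdh2*, *Fn1*, *Zeb1* or *Snai2* is reported here, so epithelial and mesenchymal markers cannot be compared as sets. Over all 32851 windows of this length, 17.2% held the letters, and no other motif was searched. A match is a description of the letters and not a bound site.

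**Figure D1:**
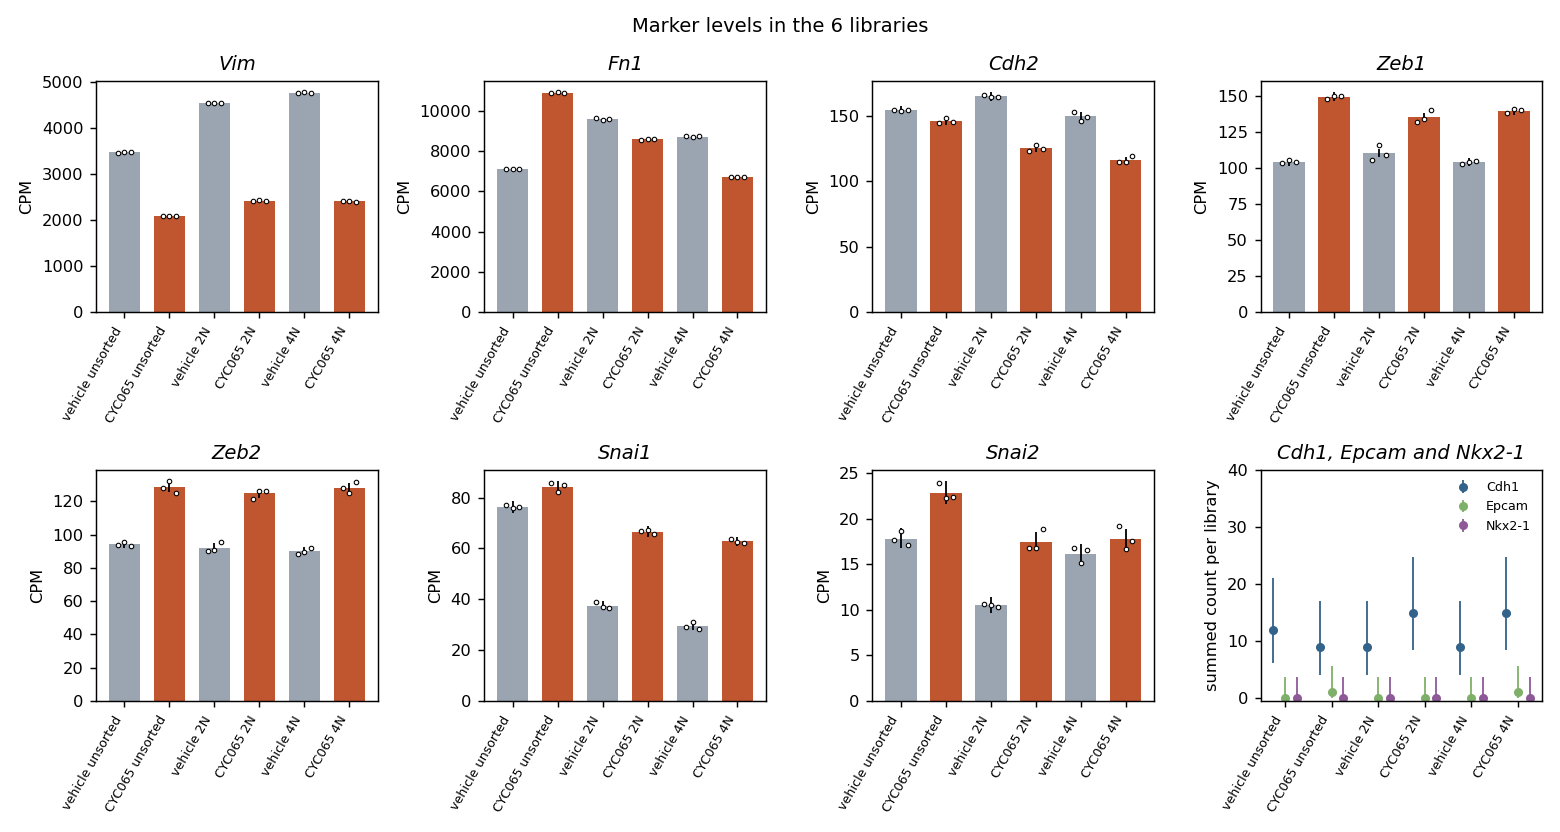
Levels of the 10 markers in the 6 libraries. Bars give CPM of the summed library (gray, vehicle; orange, CYC065), black lines the 95% counting interval, and white points the 3 columns of the library, each scaled to the full library; the last panel gives summed counts with their intervals. *Vim* and *Cdh2* were lower, and *Zeb1* and *Zeb2* higher, in the 3 CYC065 libraries than in the 3 vehicle libraries, and *Cdh1*, *Epcam* and *Nkx2-1* stayed at 0 to 15 counts.

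The other 7 markers had at least 592 counts in every library. Within a library the coefficient of variation of the 3 columns was at most 0.379% for *Vim*, 0.461% for *Fn1*, 2.47% for *Cdh2*, 4.75% for *Zeb1*, 3.24% for *Zeb2*, 4.84% for *Snai1* and 7.12% for *Snai2*, the gene with the fewest counts. To set genes side by side, CPM was divided by exon length in kilobases (kb). On that scale *Vim* ran from 441 to 1005 CPM per kb and ranked between 17 and 50 among the 14762 genes with at least 30 counts in some library. *Fn1* ran from 575 to 933 CPM per kb and ranked between 23 and 41. Its reads alone were 0.694% to 1.03% of all counts in a library. *Cdh2* lay at 14.4 to 20.4 CPM per kb, against 0.0336 to 0.0561 for *Cdh1*, so the N-cadherin range sat wholly above the E-cadherin range. Among the repressors *Snai1* had the highest level per length in each library (18.1 to 51.9 CPM per kb), and *Zeb1* (10.1 to 14.5), *Snai2* (5.21 to 11.3) and *Zeb2* (4.52 to 6.44) followed. Dividing by the longest transcript in place of all exons raised the *Zeb1* range to 17.9 to 25.7 and the *Zeb2* range to 9.87 to 14.1 CPM per kb, and left *Snai1* and *Snai2* unmoved. With that length the order changed: *Zeb2* then lay above *Snai2*, and *Zeb1* came close to *Snai1* in the vehicle 4N library (17.9 against 18.1).

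The wider marker lists, which hold these markers too, showed the same contrast. *Cdh1* and *Epcam* are part of the epithelial list, and *Vim*, *Fn1* and *Cdh2* of the mesenchymal list and its sum. *Zeb1*, *Zeb2*, *Snai1* and *Snai2* are among the regulators of the transition. Of 37 epithelial genes, 26 had under 30 counts in every library, among them *Krt7*, *Krt18* and *Krt19* (keratins of simple epithelia), *Cldn3*, *Cldn4* and *Cldn7* (claudins of tight junctions) and *Esrp1* (a splicing regulator of epithelial cells). The whole list summed to 5.95 to 7.74 CPM per kb, and its highest gene was *Cgn*, which codes for the junction protein cingulin (2.20 to 4.69 CPM per kb). Of 24 mesenchymal genes, 22 passed 30 counts somewhere, and the list summed to 3627 to 5689 CPM per kb, led by *Lgals1* (galectin-1). *Fap* and *Tcf21* were the 2 that did not pass. Of 14 regulators of the transition, 11 passed, led by *Sox9* at 26.9 to 77.1 CPM per kb. *Snai3*, *Gsc* and *Klf8* did not pass.

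The alveolar type 2 and airway lists also had most of their genes under 30 counts, while the alveolar type 1 list did not. In the alveolar type 2 list 7 of 10 genes stayed under 30 counts, including *Sftpa1*, *Sftpb*, *Sftpc* and *Sftpd*, which code for surfactant proteins; the 3 that passed were *Etv5* at 9.54 to 15.3, *Abca3* at 7.06 to 13.1 and *Lpcat1* at 6.01 to 9.43 CPM per kb. In the airway list 7 of 10 stayed under 30 counts, among them the club cell gene *Scgb1a1* and the basal keratin *Krt5*. The alveolar type 1 list had 7 of 8 genes past 30 counts, but its sum was nearly all *Cav1* (99.9 to 177 CPM per kb), the caveolin gene, which mesenchymal cells also express. Of 17 lung and endoderm transcription factors, 8 stayed under 30 counts (*Sox2*, *Foxa3* and *Nkx2-1* among them), and the highest was *Foxp4*. Of 17 gut-like genes, a program that lung adenocarcinoma without NKX2-1 can carry, 15 stayed under 30 counts and the list summed to at most 1.19 CPM per kb. The defining markers *Nkx2-1*, *Epcam* and *Cdh1*, the surfactant genes and the club cell gene were thus at or near 0 in this RNA of a line labelled as lung cancer, while 9 of the 17 lung and endoderm factors passed 30 counts. No cell type is assigned here.

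Most markers of other cells were low, apart from *Msln*, *Wt1* and *Cd68*. The leukocyte gene *Ptprc* had 1 count in the CYC065 4N library and 0 in the other 5, all 6 erythroid genes and 7 of 8 neuroendocrine genes stayed under 30 counts, and the 7 endothelial genes summed to at most 0.936 CPM per kb. Of the mesothelial list *Msln* reached 21.5 CPM per kb in vehicle 4N and *Wt1* 2.79 in vehicle unsorted. *Cd68*, a lysosomal gene used as a macrophage marker, was the one leukocyte gene past 1 CPM per kb, at 2.75 to 3.23 in vehicle libraries and 8.64 to 18.9 in CYC065 libraries. Its part in the marker differences was not tested.

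**Figure D2:**
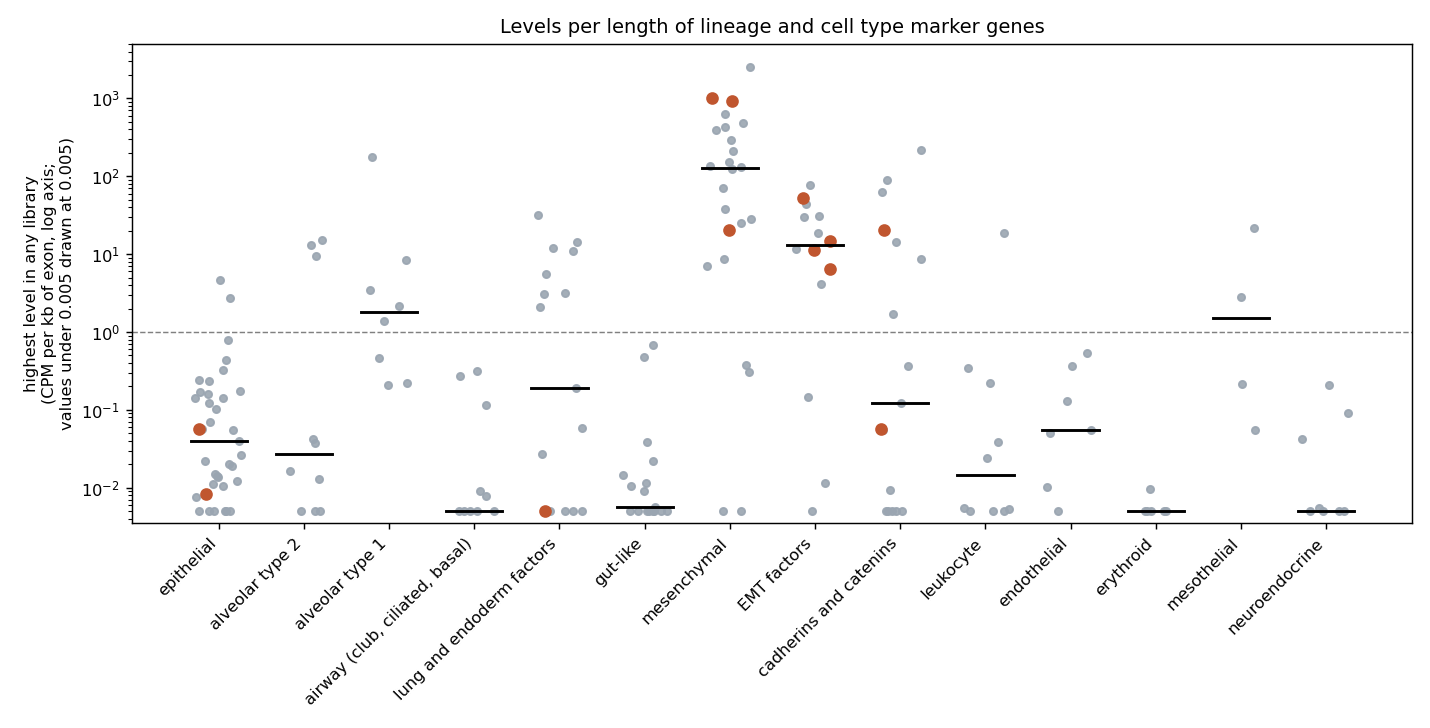
Highest level reached in any of the 6 libraries by each gene of 14 marker lists, in CPM per kb of exon on a log axis (values under 0.005 are drawn at 0.005; the dashed line is 1). Orange points are the 10 markers where a list holds them, gray points the other genes, and black lines list medians. The epithelial, airway and gut-like lists lie mostly under 1, and the mesenchymal list lies mostly well above 1, with *Lgals1* highest.

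To learn how the markers stood after CDK2/9 inhibition, CYC065 was set against vehicle within each state. *Vim* and *Cdh2* were lower and the 4 repressors were higher with CYC065 in 2N, 4N and unsorted cells alike, while *Fn1* was lower in the sorted and higher in the unsorted cells. Past 2-fold (log2 beyond 1) were 0 of the 7 markers in 2N cells, where 28.2% of all genes tested were past it, 1 of 7 in 4N cells (25.7% of genes) and 0 of 7 in unsorted cells (25.7% of genes). The one past it was *Snai1* in 4N cells, higher with CYC065, a direction in which 14.2% of genes were past 2-fold. No spike-in was added, so each level is relative to the other RNA of its library, and in bulk RNA fewer cells with a transcript and less of it per cell cannot be told apart.

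*Vim* (ENSMUSG00000026728.9, chr2:13573927-13582826, plus strand) showed the widest treatment difference of the mesenchymal markers. It stood at 3476 CPM in vehicle unsorted, 4547 in vehicle 2N and 4766 in vehicle 4N. With CYC065 it stood at 2091 CPM in unsorted, 2425 in 2N and 2412 in 4N cells. All vehicle libraries lay above all CYC065 libraries, and the 2N and 4N CYC065 libraries did not differ beyond counting error. The log2 ratio of CYC065 over vehicle was −0.91 (−0.92 to −0.90) in 2N, −0.98 (−0.99 to −0.97) in 4N and −0.73 (−0.74 to −0.72) in unsorted cells, and 1.98-fold was the widest gap. Vimentin RNA nevertheless remained among the 50 highest genes per length in each library.

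*Cdh2* (ENSMUSG00000024304.14, chr18:16588877-16809246, minus strand), which codes for N-cadherin, moved less. Its levels were 155, 165 and 150 CPM in vehicle unsorted, 2N and 4N cells, and 146, 126 and 116 CPM in the CYC065 libraries of the same order. The groups did not overlap, but vehicle 4N (147 to 153 CPM) and CYC065 unsorted (143 to 150 CPM) were close, with counting intervals that overlap. The log2 ratio was −0.39 (−0.44 to −0.35) in 2N, −0.37 (−0.41 to −0.32) in 4N and −0.08 (−0.12 to −0.03) in unsorted cells, at most 1.31-fold. The median of all genes in unsorted cells was −0.07.

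*Fn1* (ENSMUSG00000026193.15, chr1:71585520-71653200, minus strand), the fibronectin gene, went in opposite directions. Vehicle libraries stood at 7127 CPM in unsorted, 9602 in 2N and 8720 in 4N cells. CYC065 libraries stood at 10902 CPM in unsorted, 8577 in 2N and 6723 in 4N cells, so that CYC065 unsorted was the highest and CYC065 4N the lowest of all 6. The log2 ratio was −0.16 (−0.17 to −0.16) in 2N, −0.38 (−0.38 to −0.37) in 4N and 0.61 (0.61 to 0.62) in unsorted cells. Unsorted exceeded 4N by 0.99 (0.98 to 1.00) in log2 ratio, a gap larger than counting error by far, but it compares 4 single libraries.

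*Zeb1* (ENSMUSG00000024238.15, chr18:5591860-5775467, plus strand) codes for a zinc finger repressor of *Cdh1*. It was at 104, 110 and 104 CPM in vehicle unsorted, 2N and 4N cells and at 149, 135 and 139 CPM in the matching CYC065 libraries. The groups did not overlap, and vehicle unsorted and vehicle 4N did not differ beyond counting error. The log2 ratio was 0.30 (0.25 to 0.34) in 2N, 0.42 (0.38 to 0.47) in 4N and 0.52 (0.47 to 0.57) in unsorted cells.

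*Zeb2* (ENSMUSG00000026872.17, chr2:44983632-45117395, minus strand), the paralog of *Zeb1*, gave almost the same picture. Vehicle libraries held 94.2, 92.2 and 90.1 CPM and CYC065 libraries 128, 125 and 128 CPM in unsorted, 2N and 4N cells. Within each treatment these levels lay close together and the treatments did not overlap. The log2 ratio was 0.44 (0.39 to 0.49), 0.51 (0.46 to 0.56) and 0.45 (0.40 to 0.50) in 2N, 4N and unsorted cells, between 1.35-fold and 1.42-fold. Antisense partners of both genes had few counts beside theirs, 32 to 70 for *Zeb2os* and 21 to 132 for *Gm10125*, which overlaps *Zeb1*.

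*Snai1* (ENSMUSG00000042821.7, chr2:167538195-167542814, plus strand) codes for Snail, a short-lived repressor of *Cdh1*. Vehicle libraries stood at 76.4 CPM in unsorted, 37.5 in 2N and 29.4 in 4N cells. CYC065 libraries stood at 84.1 CPM in unsorted, 66.6 in 2N and 62.7 in 4N cells. The groups overlapped, since vehicle unsorted lay above both sorted CYC065 libraries. The log2 ratio was 0.83 (0.75 to 0.90) in 2N, 1.09 (1.01 to 1.17; 2.13-fold) in 4N and 0.14 (0.08 to 0.20) in unsorted cells.

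*Snai2* (ENSMUSG00000022676.7, chr16:14705852-14709385, plus strand) codes for Slug, its relative, and had the lowest CPM of the 7. Its levels were 17.8, 10.5 and 16.1 CPM in vehicle unsorted, 2N and 4N cells, and 22.9, 17.5 and 17.8 CPM with CYC065. Vehicle 2N stood apart below the rest, and vehicle unsorted, CYC065 2N and CYC065 4N lay inside each other's counting intervals. The log2 ratio was 0.73 (0.58 to 0.88) in 2N, 0.14 (0.02 to 0.27) in 4N and 0.36 (0.24 to 0.48) in unsorted cells.

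Counted together, 4 of the 7 markers had no overlap between the 3 vehicle and the 3 CYC065 libraries (*Zeb1* and *Zeb2* higher, *Cdh2* and *Vim* lower). Of all 14762 genes, 58.8% had none, so that the share among the markers is near the background. With any of 3 other scalings *Snai2* joined them, for 5 of 7. The share of all genes was not computed under those scalings, so this count has no background beside it and is not read as an excess. For *Cdh2* the counting intervals of vehicle 4N and CYC065 unsorted overlap, so its separation rests on levels within counting error.

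**Figure D3:**
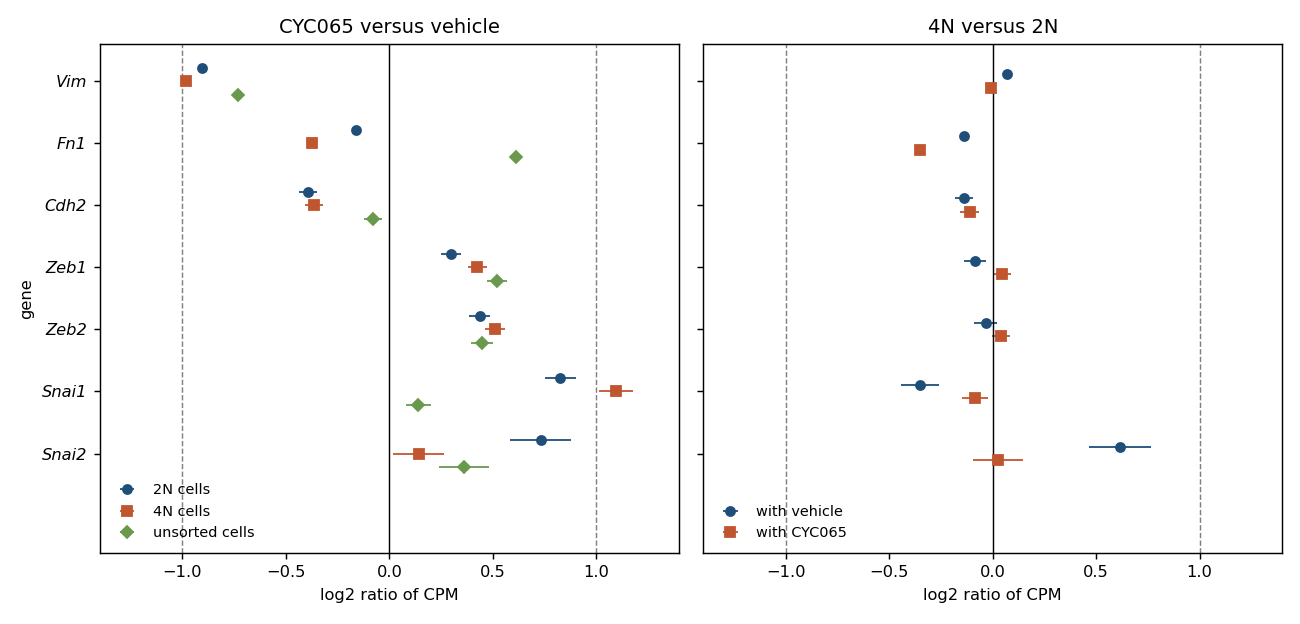
Log2 ratio of CPM for the 7 measured markers, CYC065 over vehicle (left) and 4N over 2N (right), with 95% counting intervals; dashed lines mark 2-fold. On the left *Vim* and *Cdh2* lie left of 0 and the 4 repressors right of 0 in all 3 states, *Fn1* lies on both sides, and *Snai1* in 4N cells (1.09) is the one point past 2-fold; on the right all points lie within 2-fold and *Snai2* with vehicle (0.61) lies farthest from 0.

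The 4N and 2N populations were compared within each treatment, to see whether markers followed DNA content. With a sort on DNA content alone, ploidy and cell cycle phase cannot be told apart. No marker was past 2-fold in either treatment, where 2.72% of genes were with vehicle and 3.65% with CYC065. *Snai2* had the widest difference, higher in vehicle 4N than vehicle 2N by 0.61 (0.47 to 0.77) in log2 ratio, which is 1.53-fold. With CYC065 the same ratio was 0.03 (−0.10 to 0.15), and the difference between the 2 ratios was −0.59 (−0.78 to −0.40). *Snai1* went the other way with vehicle, at −0.35 (−0.44 to −0.26), and stood at −0.08 (−0.15 to −0.02) with CYC065. Slug and Snail RNA therefore lay on opposite sides of 0 between vehicle 4N and 2N cells.

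*Fn1* was lower in 4N than in 2N cells with both treatments, at −0.14 (−0.14 to −0.13) with vehicle and −0.35 (−0.36 to −0.35) with CYC065. *Cdh2* was lower in both as well, at −0.14 (−0.18 to −0.10) and −0.11 (−0.16 to −0.07). *Vim* was at 0.07 (0.06 to 0.08) with vehicle and −0.01 (−0.02 to 0.00) with CYC065. *Zeb1* stood at −0.09 and 0.04 and *Zeb2* at −0.03 and 0.04. None of the 7 had a ratio between ratios past 2-fold, which 6.75% of genes had.

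Unsorted and sorted libraries differ in the sort and in cell mixture, which cannot be told apart. Whether the unsorted cells were stained is not given in the sources used here. *Snai1* was the one marker past 2-fold here. It was higher in vehicle unsorted than in vehicle 2N cells by 1.03 (0.95 to 1.10) and than in vehicle 4N cells by 1.38 (1.296 to 1.458), 2.04-fold and 2.60-fold, where 7.31% and 8.67% of genes were past 2-fold in that direction. In CYC065-treated cells no marker was past 2-fold against 2N (6.89% of genes) or against 4N (8.99%), and *Snai1* stood 0.34 (0.28 to 0.40) and 0.42 (0.36 to 0.48) above them. In vehicle unsorted cells, 5 of 7 markers lay outside the range between the 2N and 4N levels, as did 84.7% of all genes. In CYC065 unsorted cells 7 of 7 did, as did 81.6% of all genes, though *Zeb2* there differed from its 4N level by less than counting error. The treatment ratio of *Snai1* was 0.95 (0.85 to 1.05) smaller in log2 in unsorted than in 4N cells. That of *Zeb2* was alike in unsorted and 2N cells (difference 0.01, −0.06 to 0.08).

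**Figure D4:**
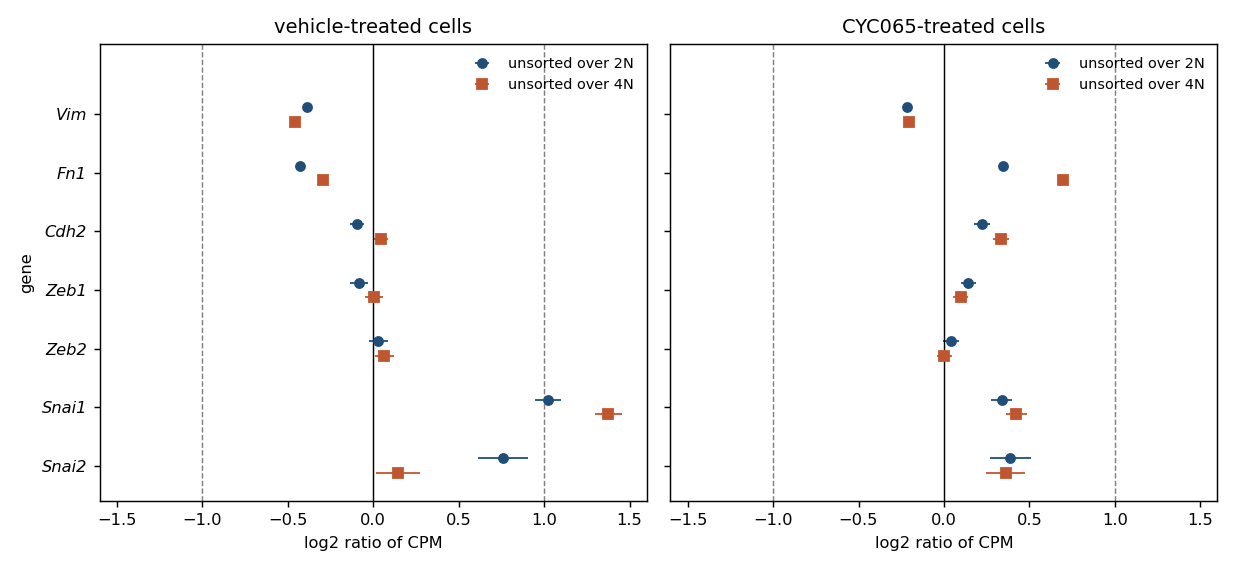
Log2 ratio of CPM of unsorted over sorted cells for the 7 measured markers, with vehicle (left) and CYC065 (right), against 2N (circles) and 4N (squares), with 95% counting intervals; dashed lines mark 2-fold. *Snai1* with vehicle (1.03 and 1.38) lies past 2-fold, *Vim* lies left of 0 in both treatments, and *Fn1* lies left of 0 with vehicle and right of 0 with CYC065.

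The partners of the ZEB and Snail repressors were read from a list of 14 transition regulators, of which the 4 repressors are part. In each of the 3 treatment comparisons 8 of the 11 measured genes lay above 0, with list medians of 0.44, 0.42 and 0.36 in 2N, 4N and unsorted cells against −0.07, −0.03 and −0.07 for all genes. Those 8 include the 4 repressors each time, and the 3 medians are the values of *Zeb2*, *Zeb1* and *Snai2*. The medians therefore do not describe the partners apart from the markers. Past 2-fold were 0 of the 11 in 2N (28.2% of all genes), 2 in 4N (*Snai1* and *Prrx1*; 25.7%) and 0 in unsorted cells (25.7%). *Prrx1*, a homeobox factor of mesenchyme, was higher with CYC065 by 0.75, 1.00 and 0.57 in log2 ratio. *Sox9* was higher by 0.79, 0.95 and 0.40. *Tcf4*, whose product is an E protein that binds E-boxes, was at 0.44, 0.73 and 0.75, and its relative *Tcf3* at −0.52, −0.31 and −0.44. *Twist1*, a basic helix-loop-helix factor, stood at 0.05, −0.01 and 0.15, with levels of 21.7 to 29.9 CPM per kb.

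The 24 mesenchymal genes, *Vim*, *Cdh2* and *Fn1* among them, were split by CYC065. In 2N cells 6 of the 22 measured were past 2-fold higher and 6 lower (14.9% and 13.3% of all genes), in 4N cells 5 and 6 (14.2% and 11.5%), and in unsorted cells 8 and 5 (11.8% and 14%). The higher ones included *Mmp2* and *Mmp14*, matrix proteases, at 1.73, 1.82 and 2.60 and at 1.74, 1.33 and 1.64 in 2N, 4N and unsorted cells, and the growth factor receptors *Pdgfra* (1.10, 1.31 and 1.65) and *Pdgfrb* (1.19, 1.23 and 1.85). The lower ones included the contractile genes *Acta2* (−1.38, −1.89 and −0.72) and *Tagln* (−2.19, −3.92 and −1.06), though 58.4% of the 50-base stretches of *Tagln* also occur in other genes, which makes its counts uncertain. *Lgals1* (−1.15, −1.26 and −1.52) and the receptor kinase *Axl* (−1.45, −1.70 and −1.02) were lower in all 3 states. *Postn*, the gene for the matrix protein periostin, was 19.7-fold higher with CYC065 in unsorted cells (4.30) and stood at 0.59 in 2N and 0.30 in 4N cells. *Vim* thus lay on the side of *Acta2*, *Lgals1* and *Axl* and not on that of *Pdgfra* and *Mmp2*. Between 4N and 2N cells with CYC065, 21 of the 22 lay below 0 (median −0.23, against 0.02 for all genes). Of these, 1 was past 2-fold lower, *Postn* at −1.27, where 3.65% of all genes were past 2-fold in either direction. With vehicle 12 of the 22 lay below 0 and 10 above (median −0.05, against 0.01 for all genes). There 1 was past 2-fold higher, where 2.72% of all genes were past it in either direction.

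**Figure D5:**
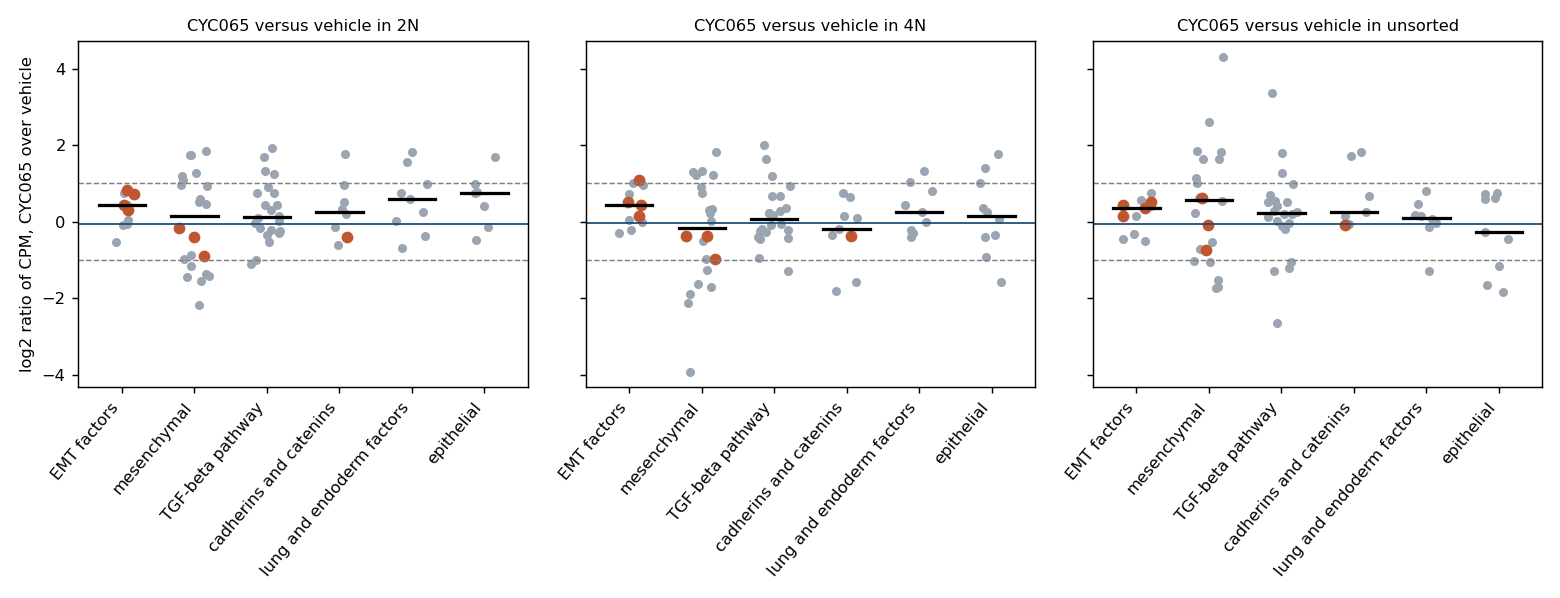
Log2 ratio of CPM, CYC065 over vehicle, for the measured genes of 6 lists in 2N, 4N and unsorted cells. Orange points are the markers, gray points the other genes, black lines list medians, the blue line the median of all genes, and dashed lines 2-fold. The transition regulators lie mostly above 0 (medians 0.44, 0.42 and 0.36), the 4 repressors among them, and the mesenchymal genes spread to both sides.

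TGF-β signaling can induce Snail and ZEB genes, and all 22 genes of its list were measured. Past 2-fold with CYC065 were 4 higher and 1 lower in 2N (14.9% and 13.3% of all genes), 3 and 1 in 4N (14.2% and 11.5%), and 3 and 4 in unsorted cells (11.8% and 14%), with medians of 0.12, 0.06 and 0.22. The ligand *Tgfb2* was higher by 1.93, 2.01 and 3.37, and the co-receptor *Tgfbr3* by 1.32, 1.65 and 1.79. *Smad7*, which codes for an inhibitor of the pathway and is itself induced by it, stood at −0.99, −1.30 and −1.22, and *Ltbp1*, which codes for a binding protein of latent TGF-β, at −1.12, −0.95 and −1.06. *Id3* was higher by 1.70 in 2N and 1.197 in 4N cells and stood at 0.19 in unsorted cells, and *Id1* stood at 0.16 and −0.06 in 2N and 4N cells and was lower, at −2.65, in unsorted cells.

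Among 17 cadherins and catenins, 8 (*Cdh1* included) stayed under 30 counts. The list was led by *Ctnnb1* (113 to 217 CPM per kb), whose product links cadherins to actin. *Cdh11*, a cadherin of mesenchyme, was higher with CYC065 by 0.96 in 2N, 0.74 in 4N and 1.82 in unsorted cells, unlike *Cdh2*. *Cdh17* was higher by 1.78, 0.65 and 1.72.

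Few epithelial genes could be compared. Of the 37, 7 were measured in 2N, 10 in 4N and 9 in unsorted cells. In 2N cells 1 was past 2-fold higher and 0 lower (14.9% and 13.3% of all genes), in 4N cells 3 higher and 1 lower (14.2% and 11.5%), and in unsorted cells 0 higher and 3 lower (11.8% and 14%). *Ppl*, the desmosome-associated periplakin gene, was higher by 0.78, 1.01 and 0.74, and *Cgn* stood at −0.47, −0.92 and −0.26. *Foxa2*, an endoderm factor that works with NKX2-1 in lung, was higher by 1.56 in 2N and 1.32 in 4N cells and stood at 0.175 in unsorted cells, at levels of 1.01 to 3.12 CPM per kb. Of the 7 measured alveolar type 1 genes, 3 were past 2-fold higher and 1 lower in 2N, 3 and 0 in 4N, and 3 and 3 in unsorted cells, beside the same shares of all genes. *Ager*, which codes for RAGE, was higher by 2.58, 3.46 and 3.60 from vehicle levels of 0.175 to 0.285 CPM per kb, whereas *Rtkn2* stood at −0.07, 0.01 and −1.70.

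For each measured marker, the genes with the most similar course over the 6 libraries were sought among 10815 genes with at least 100 counts in every library, by the root mean square distance of centred log2 CPM. For *Vim* they were *Mrpl57*, *Sf3b3* and *Dars* (0.0278 to 0.0302), and for *Cdh2* *Ddi2*, *Slc35d1* and *Pbx2* (0.0223 to 0.0345). *Zeb1* was nearest to *Med13*, *Znfx1* and *Mef2d* (0.0280 to 0.0332), and *Zeb2* to *Smarcd2*, *Nipa1* and *Hsd17b4* (0.0158 to 0.0336). *Snai1* was nearest to *Nupr1*, *2610037D02Rik* and *Shc2* (0.0764 to 0.0900). *Pgrmc2*, *Ror2* and *Pard6g* lay 0.0801 to 0.0846 from *Fn1*, and *Mterf1a*, *Pcca* and *Rab3a* 0.0986 to 0.105 from *Snai2*. With 6 points that share libraries these are descriptions.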

How the data were processed

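Bulk RNA of ED1SQ4 cells was measured as 18 columns in 6 conditions. Per the labels and the methods of the study, the authors depleted ribosomal RNA, prepared stranded libraries, removed adapters (cutadapt 1.18), ran STAR 2.7.0f against mm10 and deposited expected counts per gene from RSEM (1.3.1 in the submitters' processing notes; GENCODE M21), not normalized. The strand setting of the counting is not given in the sources used here. Genes at which RSEM split shared reads, 9.66% of all, have fractional values; the 10 markers had whole counts in all columns.

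The library names in the labels give the 3 columns of a condition as parts of 1 library, though the titles call them replicates; they were summed and rounded, and no test between conditions was made. Library factors were TMM (edgeR 4.0.16, R 4.3.3) over the 6 libraries. Ratios were computed in Python 3.11.15 (SciPy 1.17.1) for genes with at least 30 counts in 1 of the libraries compared, with exact Clopper-Pearson 95% intervals of counting error. Ratios between ratios have a normal interval. No pseudocount was added; a count under 3 was set to 3 in ratios over all genes. Reads without molecular identifiers are not independent molecules, so intervals and floors cover counting error only. The calculation was tested on simulated data. Levels per length used the exons of GENCODE M21, to which all 55450 identifiers matched.

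The markers and the 15 other gene lists were chosen with earlier results of these data known. All 10 markers are named; from each list the text names the highest gene, the 2 widest ratios in each direction with at least 100 counts, and defining genes under 30 counts. *Pdgfra*, *Pdgfrb*, *Acta2*, *Lgals1*, *Axl*, *Cd68*, *Twist1*, *Tcf4*, *Sox9* and further values of genes so named were added after their values were seen. Alternatives were library totals, DESeq2 1.42.0 size factors, separate TMM, count minimums, a 1.5-fold threshold, another length and leaving out each column. One gene of the mesenchymal list is not reported here by name.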

Additional observations from a re-analysis of the deposited data

Results flagged for a closer look

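*Fn1* had treatment ratios of opposite sign in sorted and unsorted cells. CYC065 over vehicle was −0.163 in log2 ratio in 2N and −0.375 in 4N cells, as compared with 0.613 in unsorted cells. *Zeb1* had ratios of 4N over 2N of opposite sign, −0.0852 with vehicle and 0.0433 with CYC065, of which the second has an interval that begins at 0.000055. With 1 library per condition these differences between groups were not tested.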

How the results depend on the processing

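No paired analysis was possible because the results come from no test, and the columns that share a number are, by their library names, parts of single libraries. Relative to the 42 marker ratios as reported, library totals alone shifted values by up to 0.14 in log2, DESeq2 size factors by up to 0.06, TMM of sorted and unsorted libraries apart by up to 0.03, and leaving out a column by up to 0.10. Signs changed only for 3 ratios near 0: *Vim* in 4N over 2N with CYC065 under library totals, the difference of the *Cdh2* ratios under DESeq2 size factors, and *Snai2* in 4N over 2N with CYC065 without the first column. The lower sign of *Vim* and *Cdh2* and the higher sign of the 4 repressors with CYC065 held under all 6 of these settings. For *Cdh2* in unsorted cells the ratio under DESeq2 size factors was −0.019 (−0.063 to 0.025), an interval that spans 0. Markers past 2-fold in 4N cells numbered 2 and not 1 with DESeq2 size factors and with separate TMM, where *Vim* came to −1.003 and −1.013. Of 14183 genes, 1969 were past 2-fold higher and 1696 lower with DESeq2 size factors, and 1941 and 1728 with separate TMM. With a threshold of 0.58 in log2, the counts were 3 in 2N, 2 in 4N, 2 in unsorted cells and 1 in 4N over 2N with vehicle, in place of 0, 1, 0 and 0. The share of all genes past 0.58 is not given, so these counts are not read as an excess. The quartiles of all genes were −0.62 and 0.56 in 2N, −0.56 and 0.55 in 4N and −0.62 and 0.46 in unsorted cells. In 4N over 2N with vehicle they were −0.14 and 0.14. Library totals moved the median of all genes from −0.07 to 0.07 in 2N and from −0.03 to 0.11 in 4N cells, and genes past 2-fold from 2100 higher and 1875 lower to 2460 and 1454 in 2N and from 2017 and 1626 to 2438 and 1229 in 4N cells. The cause was not tested. Depth limits *Cdh1*, *Epcam* and *Nkx2-1*, and the absence of a second library per condition limits all ratios.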
